A study of Ictalurus punctatus with 54 samples.

Results

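Channel catfish (Ictalurus punctatus) fingerlings challenged with F. covae a day after copper sulfate (CuSO4) exposure, here Cu24h-4h, were compared with fingerlings challenged straight after the exposure, here Cu0h-4h. Both groups were sampled 4 h after the challenge, so the comparison asks how the gill transcriptome of infected fish depended on the interval between copper and bacteria. It rests on 12 of the 54 gill libraries of the series, 6 fish in each group, and covers every transcript in the files. The fish were taken by the group and time given in the sample labels. The other 42 libraries are untreated controls, uninfected fish of each copper schedule (Cu0h and Cu24h), and challenged fish of each schedule sampled after 1 h (Cu0h-1h, Cu24h-1h) and 24 h (Cu0h-24h, Cu24h-24h), again with 6 fish per group. They are used below only to place the 4 h difference.

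All 12 fish received copper sulfate at 2.1 (mg/mL in the labels, mg/L in the methods of the study) and the bacterium, which the labels call F. columnare and the study F. covae. The fish weighed 7.3 g on average. Nominally, Cu0h-4h gills were taken 4 h after copper and Cu24h-4h gills 28 h after it, so the interval before the challenge and the total time since copper cannot be told apart in these groups. The labels give the interval of the Cu24h fish as copper exposure under static holding, whereas the methods also mention flow-through water and call the interval recovery, the word used below for the Cu24h schedule. Whether copper stayed in the water was not tested. Each library comes from 1 fish of a set that the study kept in 3 replicate tanks per treatment, and the sources do not say which tank a fish came from, so p-values measure the spread between fish and may miss a spread between tanks.

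The gill is a thin epithelium that exchanges gases and ions with the water, and it is among the first tissues that waterborne copper and columnaris bacteria reach. Free copper injures gill epithelium and disturbs its ion transport, while cells bind the metal with metallothioneins and answer the oxidative damage with antioxidant enzymes and chaperones. Columnaris bacteria adhere to mucus and gill surfaces and provoke an innate response of lectins, cytokines, chemokines and infiltrating leukocytes. Which of these programmes the values below belong to was not tested, because the files list Ensembl transcript numbers and 0 of the 37586 could be paired with a gene name. For the same reason the tissue could not be checked against its markers. A lower level in bulk gill may mean fewer cells of a type or less RNA per cell, which cannot be told apart.

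The deposited values are effective counts, which are estimated counts for each transcript, rounded to whole numbers. The effective counts of Cu0h-4h fish summed to between 672284 and 1093928 (median 943999) and those of Cu24h-4h fish to between 554741 and 865300 (median 754767). The totals of Cu24h-4h were lower (exact permutation test over 12 fish, two-sided, p = 0.0238, adjusted over 3 library measures 0.0357). In Cu24h-4h the 10 most abundant transcripts took 17.9% ± 1.33 (SD, n = 6) of the counts, and in Cu0h-4h 14.6% ± 2.21 (SD, n = 6), a difference of 3.25 percentage points (exact permutation test, p = 0.0173, adjusted 0.0357). Thinned at random to the same 352013 counts, Cu24h-4h libraries detected 16221 ± 396 transcripts and Cu0h-4h libraries 16290 ± 1493 (SD, n = 6), a difference within the spread (exact permutation test, p = 0.963). Cu0h-4h replicate 4 stood apart, with the smallest total of its group, 13376 transcripts detected against 16022 to 17256 in the other 5 fish, and a mean correlation of 0.736 with its own group. Without this fish the mean number detected in Cu24h-4h minus that in Cu0h-4h was -652 (exact permutation test, p = 0.039).

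Gill transcription differed widely between the schedules 4 h after challenge, in both directions. Of the 7791 transcripts that passed the low-count filter, 631 were differentially expressed (DEGs: FDR below 0.05 and a log2 fold change above 1 in size, edgeR quasi-likelihood test with Benjamini-Hochberg adjustment), which is 8.1% of those tested. In Cu24h-4h 326 were upregulated relative to Cu0h-4h (4.18%) and 305 were downregulated (3.91%). The median log2 fold change over all transcripts tested was -0.02, a value that the scaling of the libraries (TMM) keeps small. The balance of the directions also depends on this scaling and on the fish. With DESeq2's size factors 351 were upregulated and 273 downregulated, and without replicate 3 of both groups 401 and 318. With a threshold on the FDR alone 830 transcripts passed, and 2089 had an unadjusted p under 0.05. Fish of the same group varied with a biological coefficient of variation of 0.471. The number of DEGs was 400 without Cu24h-4h replicate 4, 411 without Cu24h-4h replicate 6 and 598 without Cu0h-4h replicate 4, and it was 1122 when the low-count filter was left out.

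Most DEGs changed moderately. Among the upregulated transcripts the log2 fold change had a median of 1.40, exceeded 2 in 40 and exceeded 3 in 6, with a highest value of 3.60. Among the downregulated transcripts its size had a median of 1.44, exceeded 2 in 41 and exceeded 3 in 1, with a highest value of 3.52. The largest 10 rises ran from 2.71 to 3.60 and the largest 10 falls from -2.40 to -3.52. The upregulated transcripts were the more abundant set, with a median of 69.1 CPM (counts per 1000000 counts of a library, scaled by TMM) over the 12 fish, against 38.3 CPM for the downregulated and 30.6 CPM for all transcripts tested. CPM is not corrected for transcript length here, so these medians compare estimated counts and not molecules.

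The share of transcripts called was higher among abundant transcripts. When the tested transcripts were divided by level into 4 bins of like size, 28 were upregulated and 55 downregulated in the lowest bin (median 14.7 CPM), or 4.26% of it. In the highest bin (median 146 CPM) 166 were upregulated and 93 downregulated, or 13.3%. The shares of the bins between were 6.37% and 8.47%. Downregulated transcripts were thus the more numerous in the lowest bin and upregulated ones in the highest. Depth moves with abundance in the same way, since a transcript with more reads is measured with less error, and its part in this trend was not tested.

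**Figure D1:**
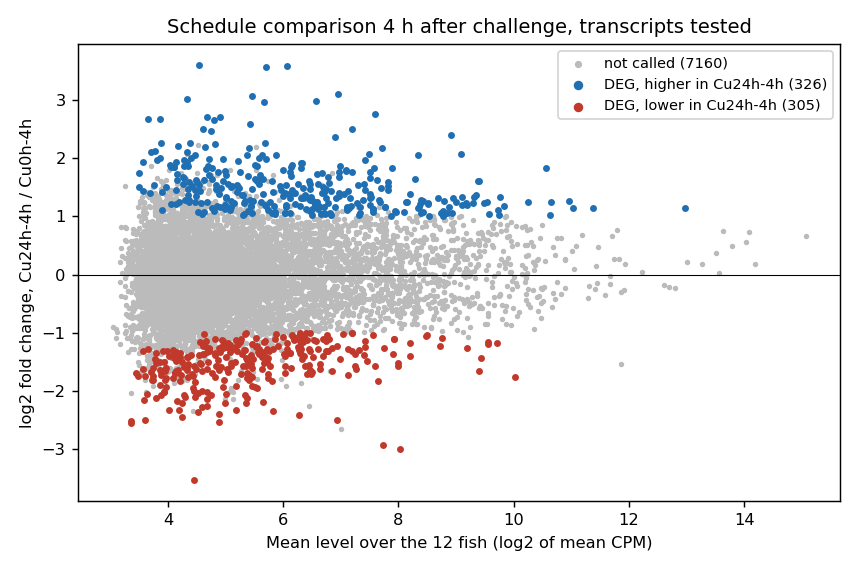
The log2 fold change of Cu24h-4h over Cu0h-4h (vertical axis) against the mean level over the 12 fish (horizontal axis, log2 of mean CPM) for the 7791 transcripts tested, 1 point each. The 326 upregulated DEGs (blue) reach to higher levels than the 305 downregulated DEGs (red), and the 7160 transcripts not called (grey) include some with changes above 1 log2 unit in size.

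Separation between the groups was complete for part of the DEGs. Every Cu24h-4h fish lay above every Cu0h-4h fish in 119 of the 326 upregulated transcripts, and below every Cu0h-4h fish in 152 of the 305 downregulated ones. Over all transcripts tested the groups did not overlap in 421, or 5.4%. The fish nearest to the opposite group was most often replicate 3 on either side. Cu24h-4h replicate 3 was the lowest of its group in 110 of the upregulated transcripts and the highest of its group in 105 of the downregulated ones, and Cu0h-4h replicate 3 was the nearest of its group in 109 and 95 of them. The number of DEGs was 719 without replicate 3 of both groups, 515 of them among the 631. The labels do not pair these fish, and whether they share more than a number is not known.

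Few transcripts had counts in all fish of 1 schedule and in no fish of the other. Of the 37586 transcripts listed, 9 had 0 counts in all Cu0h-4h fish and counts in all Cu24h-4h fish, and 6 showed the reverse. Counts were 0 in all 12 fish for 8160 transcripts, and above 0 in all 12 for 8674.

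The largest rise that met the rule for naming transcripts was that of ENSIPUT00000019250. (The rule took DEGs without overlap whose scaled count averaged 50 or more over the 12 fish, which 80 upregulated and 65 downregulated transcripts met. It used the 4 h fish, which favours a larger effect at 4 h than in the other fish.) Its level was 3.27 CPM in the lowest, 9.94 in the median and 24.9 in the highest Cu0h-4h fish. In Cu24h-4h it was 29.8, 89.3 and 257 CPM. The lowest Cu24h-4h fish lay just above the highest Cu0h-4h fish, and the spread within Cu24h-4h was wide. The means were 11.3 ± 7.96 and 123 ± 102 CPM (SD, n = 6), a log2 fold change of 3.58 (standard error 0.58, FDR 0.00133, edgeR). Controls had 121 to 291 CPM, so the lower Cu24h-4h fish were below all of them and the higher ones among them. A day after challenge the transcript was at or near 0 in both schedules, with at most 0.992 CPM in Cu0h-24h and 1.22 CPM in Cu24h-24h, and at 1 h it separated the schedules by more, at 1.93 to 10.2 CPM in Cu0h-1h and 86.1 to 305 CPM in Cu24h-1h. Uninfected Cu0h fish were uneven, with 0 counts in 3 of 6 fish and up to 287 CPM. Uninfected Cu24h fish had 86.2 to 585 CPM. The 3 fish with 0 counts were among the 4 Cu0h libraries that detected under 14000 transcripts at equal depth. The 2 Cu0h libraries above 14000 had 162 and 287 CPM. The 4 Cu24h libraries above 14000 had 159 to 585 CPM, so these levels overlapped. The difference between the 4 h and 1 h schedule effects was -1.87 log2 units (standard error 0.83) and did not pass the test (FDR 0.368, edgeR).

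ENSIPUT00000017536 was the next largest rise. Its level was 9.31, 22.8 and 53.2 CPM in the lowest, median and highest Cu0h-4h fish. In Cu24h-4h it was 66.0, 183 and 512 CPM, so the groups were set apart by a narrow gap. The means were 27.6 ± 16.0 and 220 ± 170 CPM (SD, n = 6), a log2 fold change of 3.10 (standard error 0.49, FDR 0.00131, edgeR). Controls had 55.6 to 280 CPM, and 2 Cu24h-4h fish, at 306 and 512 CPM, lay above all of them. The low level in immediately challenged fish was present at 1 h, at 1.39 to 27.0 CPM in Cu0h-1h. The recovered fish at 1 h overlapped with them, at 14.3 to 103 CPM in Cu24h-1h. A low level was not seen in Cu0h-24h (81.3 to 307 CPM, with 70.4 to 276 CPM in Cu24h-24h). The schedule effect at 4 h exceeded that at 24 h by 3.13 log2 units (standard error 0.64, FDR 0.0116, edgeR). Uninfected Cu0h fish already had 5.49 to 89.6 CPM against 66.6 to 623 CPM in Cu24h, and the 4 h effect differed from the uninfected one by 0.08 (standard error 0.75, FDR 0.98).

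Of the falls, ENSIPUT00000026479 was the largest under the same rule. Its level was 139.8, 150.2 and 487.2 CPM in the lowest, median and highest Cu0h-4h fish, where 5 fish lay between 139.8 and 182.9 and replicate 5 was far above them. In Cu24h-4h it was 11.95, 39.8 and 58.0 CPM. All Cu24h-4h fish were below all Cu0h-4h fish, by a wide margin. The means were 208 ± 138 and 36.3 ± 16.3 CPM (SD, n = 6), a log2 fold change of -2.49 (standard error 0.38, FDR 0.00128, edgeR), and -2.06 without Cu0h-4h replicate 5. Controls had 46.4 to 163 CPM, uninfected Cu0h fish 87.0 to 175 and uninfected Cu24h fish 26.3 to 198. Cu24h-4h therefore lay in the low part of the uninfected range or below it, and Cu0h-4h in its upper part or above it. The low end in Cu24h came from the 2 libraries under 14000 detected transcripts, at 26.3 and 58.9 CPM. The other 4 Cu24h fish had 108 to 198 CPM, above all Cu24h-4h fish. A day after challenge the level was lower in both schedules, at 15.6 to 60.7 CPM in Cu0h-24h and 3.91 to 20.7 CPM in Cu24h-24h. The schedules did not overlap at 1 h either, at 137 to 810 CPM in Cu0h-1h and 24.96 to 128 CPM in Cu24h-1h. The median of Cu0h-1h, 444 CPM, was above that of Cu0h-4h. The difference between the 4 h and 1 h effects was 0.36 log2 units (standard error 0.58) and did not pass the test (FDR 0.873, edgeR). The 4 h effect differed from the uninfected one by -2.21 log2 units (standard error 0.56), which did not pass after adjustment (FDR 0.125, edgeR).

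ENSIPUT00000033330 fell as well. Its level was 61.9, 146 and 198 CPM in the lowest, median and highest Cu0h-4h fish. In Cu24h-4h it was 12.8, 20.8 and 51.7 CPM, with replicate 3 above its 5 companions, which reached at most 23.8 CPM. The means were 131 ± 48.9 and 23.8 ± 14.5 CPM (SD, n = 6), a log2 fold change of -2.40 (standard error 0.36, FDR 0.00125, edgeR). Controls had 0 to 31.3 CPM, close to Cu24h-4h. Uninfected Cu0h fish had 29.4 to 64.9 CPM and uninfected Cu24h fish 9.34 to 20.4 CPM, so the uninfected groups did not overlap either. The 4 h effect differed from the uninfected one by -1.01 log2 units (standard error 0.54), which did not pass the test (FDR 0.431, edgeR). At 1 h the schedules did not overlap, at 79.0 to 174 CPM in Cu0h-1h and 12.9 to 52.0 CPM in Cu24h-1h. The difference between the 4 h and 1 h effects was -0.54 log2 units (standard error 0.50) and did not pass the test (FDR 0.737, edgeR). At 24 h both schedules were high, at 101 to 135 CPM in Cu0h-24h and 81.5 to 132 CPM in Cu24h-24h, so the recovered fish were, a day after challenge, within the range that Cu0h-4h had at 4 h. The 4 h effect minus the 24 h effect was -2.18 log2 units (standard error 0.39, FDR 0.00303, edgeR).

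**Figure D2:**
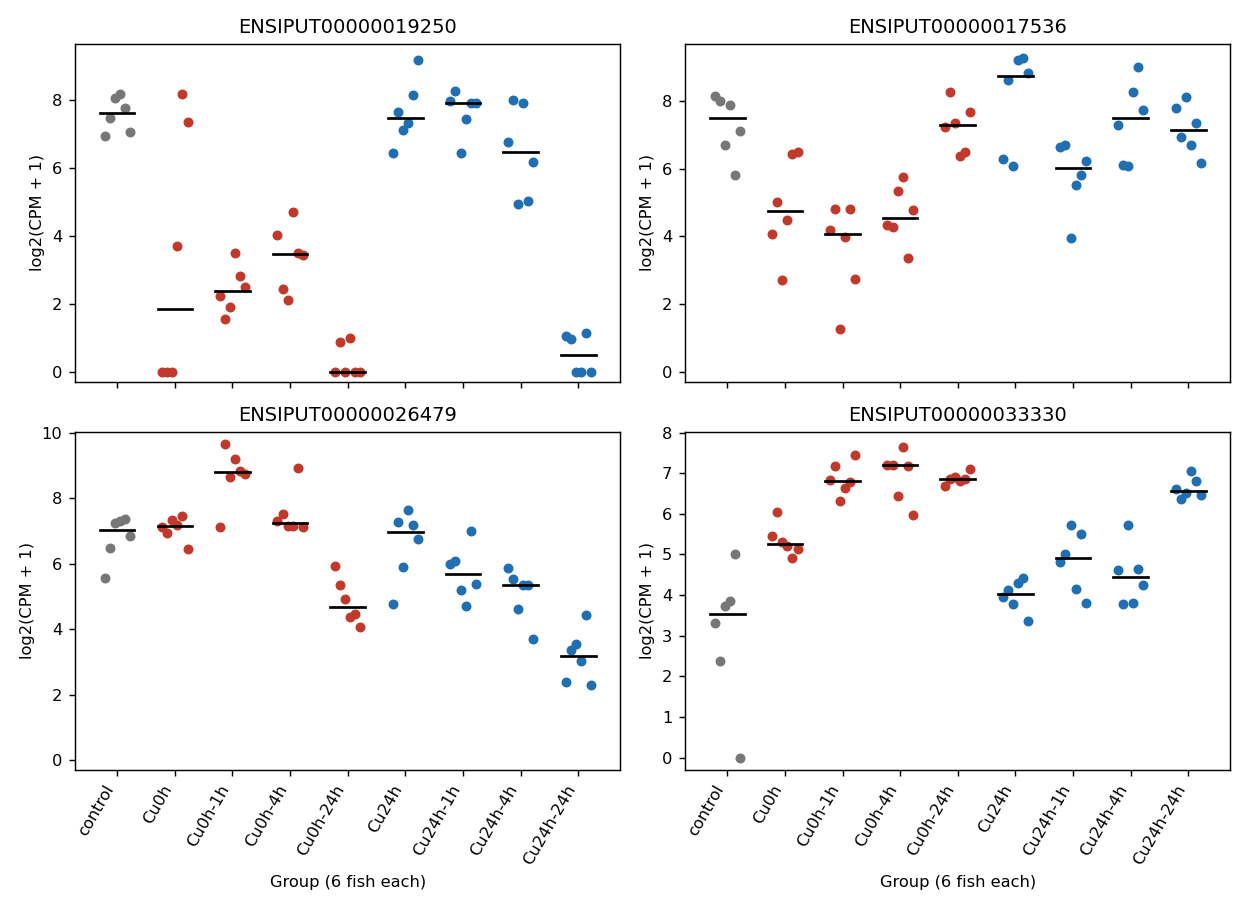
Level of the 4 named transcripts, as log2(CPM + 1), in each of the 54 fish, by group (grey controls, red challenged or sampled straight after copper, blue after the 24 h interval), with 1 point per fish and a bar at the median of 6 fish. In each panel the Cu24h-4h points and the Cu0h-4h points do not overlap, and the Cu24h-24h points of ENSIPUT00000033330 (81.5 to 132 CPM) lie with those of Cu0h-24h.

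Set against the untreated controls, the schedule difference lay mainly on the side of the immediately challenged fish. These controls were sampled before any copper or bacteria, and no untreated fish were sampled later. In the distance from their mean, treatment, handling and elapsed time therefore cannot be told apart. The 326 upregulated transcripts had a median log2 difference from the control mean of -1.46 in Cu0h-4h and of -0.04 in Cu24h-4h. The 305 downregulated transcripts had a median of 1.80 in Cu0h-4h and 0.34 in Cu24h-4h. Over all transcripts tested the medians were 0.19 and 0.16. The transcripts were chosen on the difference between these groups, which fixes that they differ but not which group lies near the controls. The control mean was nearer to Cu24h-4h than to Cu0h-4h for 268 of the upregulated (82.2%) and 286 of the downregulated transcripts (93.8%), and for 66.1% of all transcripts tested. With the uninfected copper groups the share of the upregulated list was close to or below that of all transcripts tested. The Cu0h mean was nearer to Cu24h-4h for 53.4% of the upregulated and 80.3% of the downregulated transcripts (all tested 58.1%). The Cu24h mean was nearer to it for 61.0% and 87.5% (all tested 60.4%). These means include libraries under 14000 detected transcripts, 4 of 6 in Cu0h and 2 of 6 in Cu24h, and the shares were not repeated without them. In those 2 Cu24h libraries the median of the upregulated list relative to the controls was 0.08 and 0.11, against -1.16 to -0.71 in the other 4.

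By distance from the controls the DEGs fell into unequal sets. A difference above 1 log2 unit in size from the control mean was seen in Cu0h-4h alone for 231 upregulated (70.9%) and 212 downregulated transcripts (69.5%), against 23.5% of all transcripts tested. The 231 were below the controls in Cu0h-4h and the 212 above them, which the direction of each list and the choice of the set fix in advance. It was seen in Cu24h-4h alone for 30 upregulated and 14 downregulated transcripts, or 9.2% and 4.59%, against 5.72% of all tested. In both groups it was seen for 16 (4.91%) and 52 (17.0%), against 12.6% of all tested, and in neither for 49 (15.03%) and 27 (8.85%), against 58.2%. Of the 52 downregulated transcripts displaced in both groups, 51 were above the controls in both. These were thus higher than in untreated gill in either schedule, and that they were so by less after the interval follows from the list. DEGs were also chosen for a difference above 1 log2 unit between the 4 h groups. This favours displacement from the controls in at least 1 of them, so the shares beside all tested are given as a description.

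The 30 upregulated transcripts displaced in Cu24h-4h alone were chosen for their distance from the controls at 4 h, and their levels are given as a description. Their median log2 difference from the controls was 1.64 in Cu24h-4h, 0.67 in Cu24h-1h and 0.26 in Cu24h-24h, and it was 0.14 in uninfected Cu24h fish. In the immediate schedule it was 0.01 before challenge, 0.32 at 1 h, -0.01 at 4 h and 0.46 at 24 h. The values at 4 h follow from the choice of the 30, and all of these values share the control mean. The 14 downregulated transcripts displaced in Cu24h-4h alone had medians of -1.55 in Cu24h-4h, -0.90 in Cu24h-1h and -0.76 in Cu24h-24h.

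Fish by fish, the lists separated the schedules without overlap, as their choice on these fish makes likely. The median level of the upregulated list relative to the control mean ran from -1.96 to -1.05 in the 6 Cu0h-4h fish and from -0.22 to 0.25 in the 6 Cu24h-4h fish. The lowest value belonged to Cu0h-4h replicate 4, the library with few detected transcripts, and the other 5 fish lay between -1.38 and -1.05. That of the downregulated list ran from 1.58 to 2.14 and from 0.19 to 0.68. Replicate 3 had the smallest displacement in Cu0h-4h for both lists, -1.05 and 1.58, and in Cu24h-4h it stood nearest to the other schedule for both, at -0.22 and 0.68. The upregulated list held 2.65 to 4.68% of all counts in Cu0h-4h fish, 7.55 to 10.2% in Cu24h-4h fish and 6.95 to 8.81% in controls. The downregulated list held 2.85 to 4.22%, 0.939 to 1.62% and 0.731 to 1.243%.

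**Figure D3:**
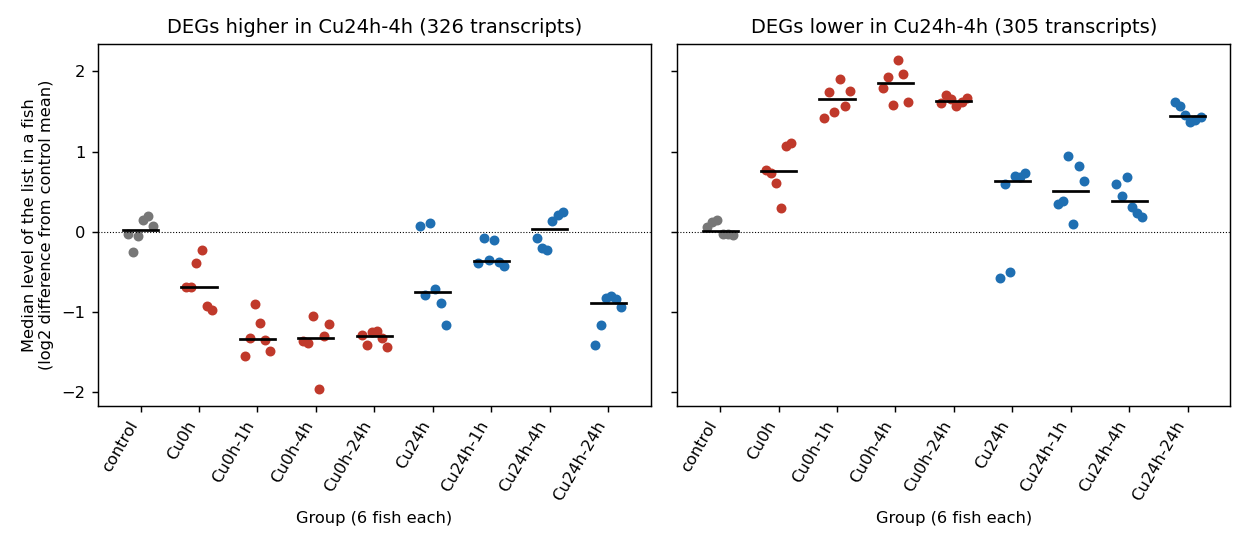
Median log2 difference from the control mean over the 326 upregulated (left) and 305 downregulated (right) DEGs of the 4 h comparison in each of the 54 fish, with 1 point per fish and a bar at the median of 6 fish (grey controls, red immediate schedule, blue 24 h interval). Cu24h-4h fish lie near the control line (-0.22 to 0.25 on the left, 0.19 to 0.68 on the right), and both 24 h groups lie on the side of Cu0h-4h.

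In fish that the comparison did not use, the direction of the difference recurred most at 1 h. Of the 326 upregulated transcripts, 276 (84.7%) were also higher in Cu24h-1h than in Cu0h-1h, where 41.3% of all transcripts tested at 4 h were higher. Of the 305 downregulated transcripts, 291 (95.4%) were lower in Cu24h-1h, against 58.7% of all. The median log2 differences at 1 h were 1.01 and -1.13, beside 1.37 and -1.41 at 4 h, where the choice of transcripts favours large values. At 1 h the groups did not overlap in the same direction for 88 of the upregulated (27.0%, all tested 3.99%) and 82 of the downregulated transcripts (26.9%, all tested 3.94%). These shares describe lists of transcripts that are not independent of each other, and carry no test. Library make-up also differed between the schedules. The 10 most abundant transcripts took a median of 12.7% of counts in Cu0h-1h and 19.4% in Cu24h-1h. The medians were 14.0% and 18.2% at 4 h, and 14.4% and 17.6% at 24 h. In uninfected fish the order was reversed, at 19.6% in Cu0h and 14.3% in Cu24h. Whether this bears on how often the direction recurred was not tested.

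At 24 h after challenge the same direction was held by 234 of the 326 upregulated (71.8%, all tested 48.1%) and 224 of the 305 downregulated transcripts (73.4%, all tested 51.9%), but with small differences. The medians were 0.37 and -0.22, and the groups did not overlap in that direction for 8 upregulated (2.45%, all tested 0.385%) and 7 downregulated transcripts (2.3%, all tested 0.603%). They did not overlap in the opposite direction for 4 of the upregulated (1.23%, all tested 0.603%) and 0 of the downregulated transcripts (all tested 0.385%). Without the Cu0h-24h library that detected 13633 transcripts the counts were 237 of 326 and 223 of 305. The list medians of the schedules lay closer together than at 4 h, and the larger shift between these times was in the recovered fish. Between 4 h and 24 h the median of the upregulated list went from -0.04 to -1.01 relative to the controls in the recovered schedule, and from -1.46 to -1.35 in the immediate one. The median of the downregulated list went from 0.34 to 1.47 in the recovered schedule, and from 1.80 to 1.65 in the immediate one. Of the upregulated transcripts 318 of 326 were lower in Cu24h-24h than in Cu24h-4h (97.5%, all tested 52.3%). Of the downregulated 298 of 305 were higher (97.7%, all tested 47.7%). In the immediate schedule 151 of the upregulated transcripts were lower in Cu0h-24h than in Cu0h-4h (46.3%, all tested 53.7%). There 101 of the downregulated were higher (33.1%, all tested 46.3%). The transcripts were chosen on the 4 h fish of both schedules, which favours a smaller difference at any other time. The mean of Cu24h-24h was nearer to Cu0h-4h than to Cu24h-4h for 238 of the 326 upregulated and 239 of the 305 downregulated transcripts. The same held for 4622 of the 7791 transcripts tested. The mean was nearer to Cu24h-4h for 27.0%, 21.6% and 40.7%, in that order.

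In uninfected fish the medians of the lists were closer to 0 than at 1 h. There 193 of the 326 upregulated transcripts (59.2%, all tested 52.3%) were higher in Cu24h than in Cu0h, with a median log2 difference of 0.13. Of the downregulated transcripts 221 of 305 (72.5%, all tested 47.7%) were lower, with a median of -0.49. The uninfected groups were split by library. At the same 352013 counts, 4 Cu0h libraries detected 12556 to 13866 transcripts and 2 detected 17940 and 17998, while 2 Cu24h libraries detected 11334 and 12927 and 4 detected 17380 to 18826. Over the 2 Cu0h and 4 Cu24h libraries above 14000, the counts were 180 of 326 (55.2%, all tested 46.0%) and 223 of 305 (73.1%, all tested 53.99%), with medians of 0.08 and -0.40.

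Relative to the uninfected fish of their own schedule, the challenged fish at 4 h differed in opposite directions for the upregulated list. No unchallenged fish of either schedule were sampled 4 h later, so the challenge and the added 4 h since copper cannot be told apart. From Cu0h to Cu0h-4h the median of the upregulated list changed by -0.75 and that of the downregulated list by 1.14, where all tested transcripts changed by 0.33. From Cu24h to Cu24h-4h they changed by 0.54 and 0.16, where all tested changed by 0.21. In the immediate schedule 277 of the 326 upregulated transcripts (85.0%, all tested 35.8%) were lower after challenge and 293 of the 305 downregulated ones (96.1%, all tested 64.2%) were higher. In the recovered schedule 265 of the 326 (81.3%) and 175 of the 305 (57.4%) were higher after challenge, where 63.4% of all tested were higher. The value of 0.16 rested on the 2 Cu24h libraries with few detected transcripts, in which the median of the downregulated list relative to the controls was -0.58 and -0.50, against 0.60 to 0.73 in the other 4. Without the libraries under 14000 detected transcripts it turned to -0.23, with 98 of the 305 higher and 207 lower (67.9% lower, all tested 49.6%), and the upregulated list changed by 0.83, with 277 of 326 higher (85.0%, all tested 50.4%). In the immediate schedule, where this left 2 Cu0h and 5 Cu0h-4h fish, the medians became -0.39 and 0.70, with 0.02 for all tested. These values share the 4 h fish on which the transcripts were chosen, and part of each difference follows from that choice.

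**Figure D4:**
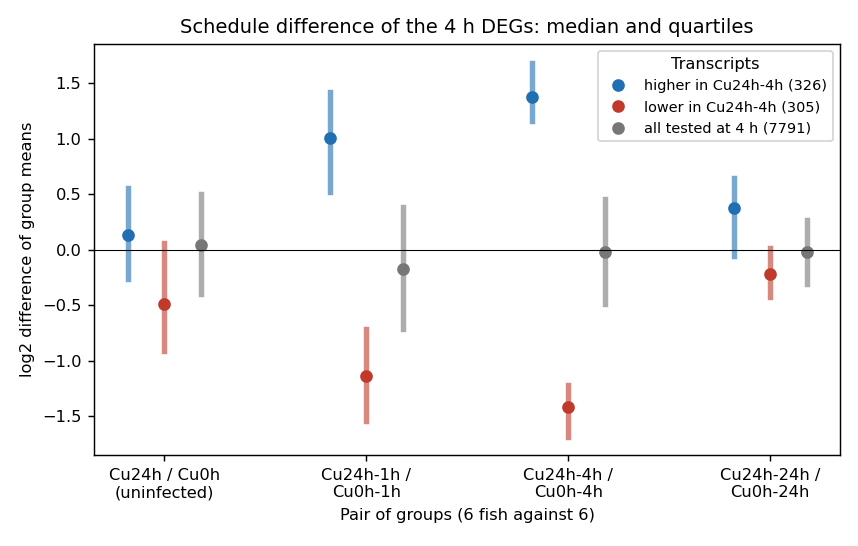
Difference between the schedules (log2 difference of group means, 6 fish against 6) in uninfected fish and 1, 4 and 24 h after challenge, for the 326 upregulated DEGs (blue), the 305 downregulated DEGs (red) and all 7791 transcripts tested (grey), with the median as a point and the quartiles as a bar. The lists were chosen at 4 h (medians 1.37 and -1.41), and in the other fish their medians are 0.13 and -0.49 uninfected, 1.01 and -1.13 at 1 h, and 0.37 and -0.22 at 24 h.

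Over all 7791 transcripts, called or not, the schedule differences at 4 h correlated across transcripts with those at 1 h (Pearson's r 0.54), at 24 h (0.27) and in uninfected fish (0.18). The 4 sets of differences share no fish, but transcripts are not independent, and depth per library and the spread of rare transcripts are common to them. The order is given as a description.

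Whether the schedule effect at 4 h differed from the effect at another time was tested transcript by transcript as an interaction on 24 libraries. Against 24 h, 111 of 10685 transcripts passed (1.04%, edgeR, FDR below 0.05 and a difference above 1 log2 unit in size), 57 with a more positive effect at 4 h and 54 with a more negative one. Among them were 79 of the 631 DEGs, or 12.5%, of which 37 were from the upregulated and 42 from the downregulated list. In these 37 the median schedule difference was 1.39 at 4 h and -0.59 at 24 h, and in the 42 it was -1.60 and 0.13. The sign was opposite at the 2 times in 59 of the 79. Since the 79 were DEGs on the same 4 h fish, their excess over 1.04% is not read as a result. Their medians and signs follow in part from this choice and from passing the interaction test, and are given as a description. The count of 111 was 65 without Cu24h-24h replicate 1, 71 without Cu24h-24h replicate 2, 67 without Cu0h-4h replicate 5, 73 without Cu0h-24h replicate 3 and 73 without Cu24h-4h replicate 1.

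Against 1 h, 37 of 10043 transcripts passed (0.368%, edgeR), 24 with a more positive effect at 4 h and 13 with a more negative one, and 11 of the 631 DEGs were among them. The larger difference was at 1 h in most: 10 of the 37 had the larger difference at 4 h, and 32 had opposite signs at the 2 times. Passing a test of the difference favours opposite signs, so that count is a description. The count rested on few fish, at 73 without Cu0h-1h replicate 1, 22 without Cu24h-1h replicate 5, and 23 without Cu24h-1h replicate 2, Cu24h-1h replicate 3 or Cu24h-4h replicate 1. Against uninfected fish, 12 of 10143 transcripts passed (0.118%, edgeR), 11 with a more positive effect at 4 h and 1 with a more negative one, and 5 of the upregulated list were among them. The 5 had a median difference of 1.87 at 4 h and -0.96 in uninfected fish, values that their choice by both tests favours. An unadjusted p under 0.05 was reached by 1323 transcripts in this test, 1172 in that against 1 h and 1523 in that against 24 h. The count against uninfected fish was not stable, since it ran from 3 without Cu0h-4h replicate 2 to 77 without Cu24h replicate 3, and was 85 when the libraries under 14000 detected transcripts were left out. A DEG at 4 h that is not among these 12 is not thereby shown to differ equally in uninfected fish.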

How the data were processed

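Gill RNA of single fish was sequenced, and groups follow the sample labels. For each fish the authors deposited a file of effective counts, which are estimated counts per Ensembl transcript, rounded by them and not normalized. The submitters' processing notes name Trim Galore 0.5.0, Bowtie2 2.3.4.3, eXpress 1.5.1 and DESeq2 1.24.0, with no roles. The study's methods describe other tools (Trimmomatic, STAR on Coco_2.0, HTSeq, edgeR), and the sources do not name the transcript set. How reads were divided between similar transcripts affects every value and was not tested.

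Computations used R 4.3.3. The 12 libraries were filtered (filterByExpr, minimum count 10, minimum total 15), scaled by TMM and tested with the edgeR 4.0.16 quasi-likelihood F-test (legacy = FALSE). Interactions used the 24 libraries of 4 groups. The standard error is the fold change divided by the square root of F, an approximation. CPM used TMM over all 54 libraries, and group means of log2 CPM a prior count of 2. Detection was compared at 352013 counts, the smallest total. Between fish within Cu0h-4h and within Cu24h-4h the chi-square per transcript was at least 5.91, so no library repeated another of its group. Other pairs of libraries were not checked. The procedure was tested on simulated data.

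Named transcripts are the 2 largest rises and 2 largest falls among DEGs without overlap and with a mean scaled count of 50 or more. None of the 37586 numbers matched the 32344 genes of the reference table, so no gene list, marker list or sequence was used. The comparison, lists and rule were chosen with earlier results of these data known. The fits were repeated with the older edgeR method, with the 9 groups together, without the filter, with a replicate block, on thinned libraries, with size factors or the Wald test of DESeq2 1.42.0, with voom and quality weights (limma 3.58.1) and leaving out each fish. Leaving out replicate 3 of both groups, or libraries under 14000 detected transcripts, was chosen after seeing the data.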

Additional observations from a re-analysis of the deposited data

Results flagged for a closer look

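Within the groups, 48 sets of 6 fish were examined for a value far from its companions, and 5 were found where chance gives about 1 in 20. Of these, 3 belong to Cu0h-4h replicate 4, with 13376 transcripts detected at equal depth, a mean correlation of 0.736 with its group and a median of -1.96 for the upregulated list. In Cu0h-4h replicate 5 the level of ENSIPUT00000026479 was 487 CPM, and in Cu24h-4h replicate 3 that of ENSIPUT00000033330 was 51.7 CPM.

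The schedule effect at 4 h differed by the interaction test (edgeR, FDR below 0.05 and more than 1 log2 unit) from that in uninfected fish for 12 transcripts, from that at 1 h for 37 and from that at 24 h for 111. Among the named transcripts, the effect at 4 h minus that at 24 h was 3.13 log2 units for ENSIPUT00000017536 (FDR 0.0116, edgeR) and -2.18 for ENSIPUT00000033330 (FDR 0.00303, edgeR). Both were named for a large difference without overlap in the same 4 h fish, which favours a larger effect at 4 h.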

How the results depend on the processing

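All of the 631 DEGs that an alternative could test kept their direction in it, and the 4 named transcripts stayed DEGs in each alternative that tested them (ENSIPUT00000019250 was not tested in thinned libraries). The alternatives use the same 4 h fish on which these transcripts were chosen, which favours both outcomes. The 631 DEGs became 1122 without the low-count filter (511 of the 631 among them), and between 433 (older edgeR method) and 749 (9 groups in 1 fit) in the others, DESeq2's Wald test giving 705 and the replicate block 486. Leaving out 1 fish gave 400 to 731. The 12 transcripts differing from uninfected fish became 6 with DESeq2's size factors, 103 without the filter, 21 with DESeq2's Wald test, 303 in 1 fit of 9 groups, 2 with the older method, 2 in thinned libraries, 1091 with voom and quality weights, 9 with the replicate block and 85 without the libraries under 14000 detected transcripts. Leaving out 1 fish gave 3 to 77, and 12 of the 24 fish shifted it more than 1.5 times. Without Cu0h replicate 5 or 6 it was 31 or 29, without Cu24h replicate 1, 3, 5 or 6 it was 53, 77, 5 or 6, without Cu0h-4h replicate 1, 2, 4 or 6 it was 5, 3, 19 or 5. It was 20 after removal of Cu24h-4h replicate 1 or of replicate 6. The 37 differing from 1 h became 74 without the filter, 83 with DESeq2's Wald test, 22 with the replicate block and 20 with the older method, and 22 to 73 without 1 fish. The 111 differing from 24 h became 318 without the filter, 197 with DESeq2's Wald test and 52 with the older method, and 65 to 144 without 1 fish. The cause was not tested in any of these.

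The share of DEGs with the same direction elsewhere was 65.6% in uninfected fish, 89.9% at 1 h and 72.6% at 24 h. It became 60.2%, 77.8% and 65.2% without the filter, 68.9% at 24 h with 9 groups in 1 fit, and at 1 h 92.8% with the older method and 94.1% in thinned libraries. Leaving out 1 fish gave 60.5 to 68.0%, 88.1 to 93.1% and 68.9 to 74.6%. The difference of -68.8 detected transcripts became -652 to 124 without 1 fish (p = 0.039 to 0.985, exact permutation tests). From Cu24h to Cu24h-4h the median log2 difference of the downregulated list turned from 0.16 to -0.23 without the libraries under 14000 detected transcripts. Replicate numbers showed no pairing in the values: same-numbered fish correlated at -0.036 to 0.043 in their deviations from the group means, and the block is an alternative only. The deposited counts per library limit the test to the 20.7% of transcripts that passed the filter. Their totals, 352013 to 1190864, are far below the reads per sample that the study's methods state, and those methods give no reason.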
